A study of Mus musculus with 8 samples.

Results

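This section describes 6 genes, the inhibitor of DNA binding genes Id1, Id2 and Id3 and the E protein genes Tcf3, Tcf4 and Tcf12, in 2 populations of regulatory T cells (Tregs). They were chosen by symbol, and each of the 6 matched 1 of the 47069 Ensembl genes present in both deposited tables. Both populations came from lymph nodes of C57BL/6 mice, 6 to 8 weeks old, that carried the 35EbiT reporter together with the Blimp1-GFP knock-in. Among CD4+CD25+ cells, the sort took those with the Thy1.1 reporter and no Blimp1 signal as Ebi3-Treg, and those with Blimp1 signal and no Thy1.1 as Blimp1-Treg. Per the labels' protocols, the gate on both was CD62L low and the typical purity was above 90%. Each population had 4 libraries, numbered 1 to 4, with libraries 1 and 2 of both in one table and 3 and 4 in the other. Values are FPKM, fragments per kilobase of gene, scaled to library depth. The labels do not say whether libraries came from separate or pooled mice. The p-values therefore measure only how these libraries spread, which may be technical.

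E proteins are transcription factors of the basic helix-loop-helix kind that pair with one another, or with partners of narrower expression, and bind short DNA elements called E-boxes. Tcf3 encodes E2A (the splice forms E12 and E47), Tcf4 encodes E2-2 and Tcf12 encodes HEB. They share the Tcf prefix with the Wnt-responsive factors of the TCF/LEF family but are not members of it. Id proteins have the helix-loop-helix part and lack the basic part that touches DNA, so an E protein paired with an Id protein does not bind its element. In the T lineage Id2 and Id3 restrain E proteins, and Tregs of mice lacking both are known to be poorly maintained. Id3 is often discussed with resting and memory states of T cells and Id2 with effector states.

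Id3 was the 1 gene of the 6 that differed between the populations with all 8 libraries, and it was higher in Ebi3-Treg. Id2, the most abundant Id transcript in every library, had its lower values in Ebi3-Treg, but its libraries varied so widely that the difference was not called with all 8; it was called when libraries of the same number were paired or when both numbered 1 were left out. Id1 was near the limit of the tested range. With all 8 libraries none of the 3 E protein genes was called, and Tcf12 was called when both libraries numbered 2 were left out. Pairing by number called 22.4% of all tested genes. Leaving out both libraries numbered 1 called 16.1%, and leaving out both numbered 2 called 16.0%. The 1 call among 6 genes has to be read against the 6.29% of all 12273 tested genes that were called, 3.37% higher and 2.93% lower in Ebi3-Treg (limma on log2(FPKM + 1), Benjamini-Hochberg adjusted p under 0.05).

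The depth behind the FPKM values, read from the value of a single fragment in low genes, was 13329861 to 31275295 fragments a library. Both libraries numbered 1 stood apart in B cell genes: the summed level of 8 B cell markers was 246 in Ebi3-Treg 1 and 171 in Blimp1-Treg 1 (FPKM), against 31.4 to 71.9 FPKM in the other 6. The 7 myeloid markers summed to 117 and 101 FPKM in Ebi3-Treg 1 and 2, against 17.1 to 39.5 FPKM in the other 6. Most of these 2 high sums was the macrophage and neutrophil gene Lyz2, at 99.1 and 91.1 FPKM against 3.74 to 29.9 FPKM. No other listed myeloid marker had both Ebi3-Treg 1 and 2 above the other 6 libraries. The part of B cell and myeloid transcripts in the results was not tested. The libraries numbered 2 deviated alike, since their deviations from the population means correlated across genes with r = 0.89. For numbers 1, 3 and 4 this r was 0.62, 0.53 and 0.54. It was 0.56 between Ebi3-Treg 3 and Blimp1-Treg 4 and 0.61 between Ebi3-Treg 4 and Blimp1-Treg 3, so these 2 numbers were not singled out. The Treg genes Foxp3, Il2ra, Ctla4 and Ikzf2 were at 111 FPKM or more in each of the 8 libraries. The 6 listed stromal and endothelial markers summed to 30.7 to 66.2 FPKM in Ebi3-Treg libraries and 16.7 to 34.5 FPKM in Blimp1-Treg libraries. Most of that was Pecam1, with Cdh5 at 0.176 FPKM or less and at 0 in Ebi3-Treg 2. In such bulk libraries, fewer cells with a transcript and less transcript per cell cannot be told apart.

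The start-site windows of Id3 and Id2 are shown first, because these are the Id genes that carry most of the Id transcripts here and E-boxes are the elements bound by the E proteins that their products pair with. Each line gives the 250 bases before the RefSeq start (build GRCm38.p6), read 5′ to 3′ on the gene's own strand, with every CANNTG in capitals. The Id3 window is chr4:136143572-136143821 on the plus strand, and the Id2 window is chr12:25096093-25096342 on the minus strand.
Id3: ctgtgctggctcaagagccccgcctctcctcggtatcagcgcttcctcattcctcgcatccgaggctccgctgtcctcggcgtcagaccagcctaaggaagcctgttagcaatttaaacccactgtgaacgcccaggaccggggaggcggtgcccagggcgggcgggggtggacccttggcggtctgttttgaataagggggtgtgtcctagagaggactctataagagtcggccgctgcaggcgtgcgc
Id2: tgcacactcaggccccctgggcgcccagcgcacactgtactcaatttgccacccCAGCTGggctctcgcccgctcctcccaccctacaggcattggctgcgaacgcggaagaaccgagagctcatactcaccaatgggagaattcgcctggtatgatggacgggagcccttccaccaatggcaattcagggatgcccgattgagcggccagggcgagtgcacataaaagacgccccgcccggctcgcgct

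The general E-box CANNTG, which reads alike on both strands, occurred in 66.2% of 32851 such windows in the RefSeq table. The Id2 window held 1 match, CAGCTG, 196 to 191 bases before the start, a form found in 13.0% of windows. The Id3 window held none. Neither window held CAGGTG (on either strand, in 17.2% of windows) or the early growth response element GCGNGGGCG (on either strand, in 4.70% of windows). A match is a description of letters in the window, and the missing letters say nothing of binding elsewhere. The window of Id4, a family gene outside the 6 (chr13:48260866-48261115, plus strand), held 2 matches to that element and no CANNTG. Of the 3 Tcf12 windows, all on the minus strand, 1 (chr9:72111820-72112069) held a CAGCTG, 1 (chr9:72111202-72111451) held a CAAGTG and 1 (chr9:71896097-71896346) held no CANNTG. The Tcf3 window (chr10:80433636-80433885, minus strand) held a CACTTG, 54 to 49 bases before the start.

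Id3 was at 140, 111, 91.7 and 98.7 FPKM in Ebi3-Treg libraries 1 to 4 and at 24.8, 17.4, 14.7 and 11.7 FPKM in Blimp1-Treg libraries 1 to 4. Every Ebi3-Treg library was well above every Blimp1-Treg library, and the lowest of the former was still above the highest of the latter. Means were 110 ± 21.2 FPKM and 17.1 ± 5.62 FPKM (SD, n = 4), a ratio of 6.43. The log2 fold change of FPKM + 1, with positive values for higher levels in Ebi3-Treg, was 2.65 (SE 0.17, 95% interval 2.26 to 3.03, adjusted p = 0.00031). Between libraries of the same number the ratio was 5.63, 6.37, 6.23 and 8.46 for numbers 1 to 4. Of the 12273 tested genes, 17 had a larger log2 fold change. A non-overlap of the populations over all 8 libraries was found for 11.1% of tested genes, and for 6.63% in this direction. The call rested on no single library, since leaving out each in turn gave log2 fold changes of 2.56 to 2.77, with adjusted p up to 0.00364. Without both libraries numbered 1 it was 2.71, and without both numbered 2 it was 2.66. Id3 reads numbered 131 in Blimp1-Treg 4 to 2731 in Ebi3-Treg 1.

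Id2 was at 184, 384, 182 and 160 FPKM in Ebi3-Treg libraries 1 to 4 and at 208, 553, 367 and 261 FPKM in Blimp1-Treg libraries 1 to 4. The populations overlapped, because Ebi3-Treg 2 was above 3 of the 4 Blimp1-Treg libraries. Within each number, however, the Blimp1-Treg library was the higher, by ratios of 1.14, 1.44, 2.01 and 1.63. Mean FPKM was 227 ± 105 over Ebi3-Treg and 347 ± 152 over Blimp1-Treg libraries (SD, n = 4), and the log2 fold change of -0.60 (SE 0.35, 95% interval -1.42 to 0.21) was not called (adjusted p = 0.448). Pairing libraries by number, as a replicate block, gave an adjusted p of 0.0192 (SE 0.13). That fit called 22.4% of all tested genes and 8.94% in this direction, and the labels do not state its pairing. Without both libraries numbered 1 the log2 fold change was -0.74 (adjusted p = 0.0216), where 16.1% of tested genes were called and 6.99% were lower. Without both libraries numbered 2 it was -0.63 (adjusted p = 0.064).

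Id1, which encodes the Id protein best known from proliferating and endothelial cells, was near the floor of these data. It was at 2.2, 3.27, 1.5 and 1.04 FPKM in Ebi3-Treg libraries 1 to 4 and at 1.56, 1.52, 0.895 and 0.845 FPKM in Blimp1-Treg libraries 1 to 4. These values stood on 13 to 69 reads a library. Each table alone put both Ebi3-Treg libraries above both Blimp1-Treg libraries, a pattern shared by 19.0% of tested genes in one direction or the other, while over all 8 libraries the populations overlapped. The log2 fold change was 0.41 (SE 0.18, 95% interval -0.017 to 0.83, adjusted p = 0.294). With pseudocounts of 0.1 and 0.01 in place of 1 it was 0.62 (adjusted p = 0.334) and 0.66 (0.354). A difference in Id1 did not pass the test, and its interval reaches from just under 0 to 0.83. Id4, the family's other gene, which was not among the 6, was at 0.463 FPKM or less, 15 reads at most, in each library and was not tested.

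**Figure D1:**
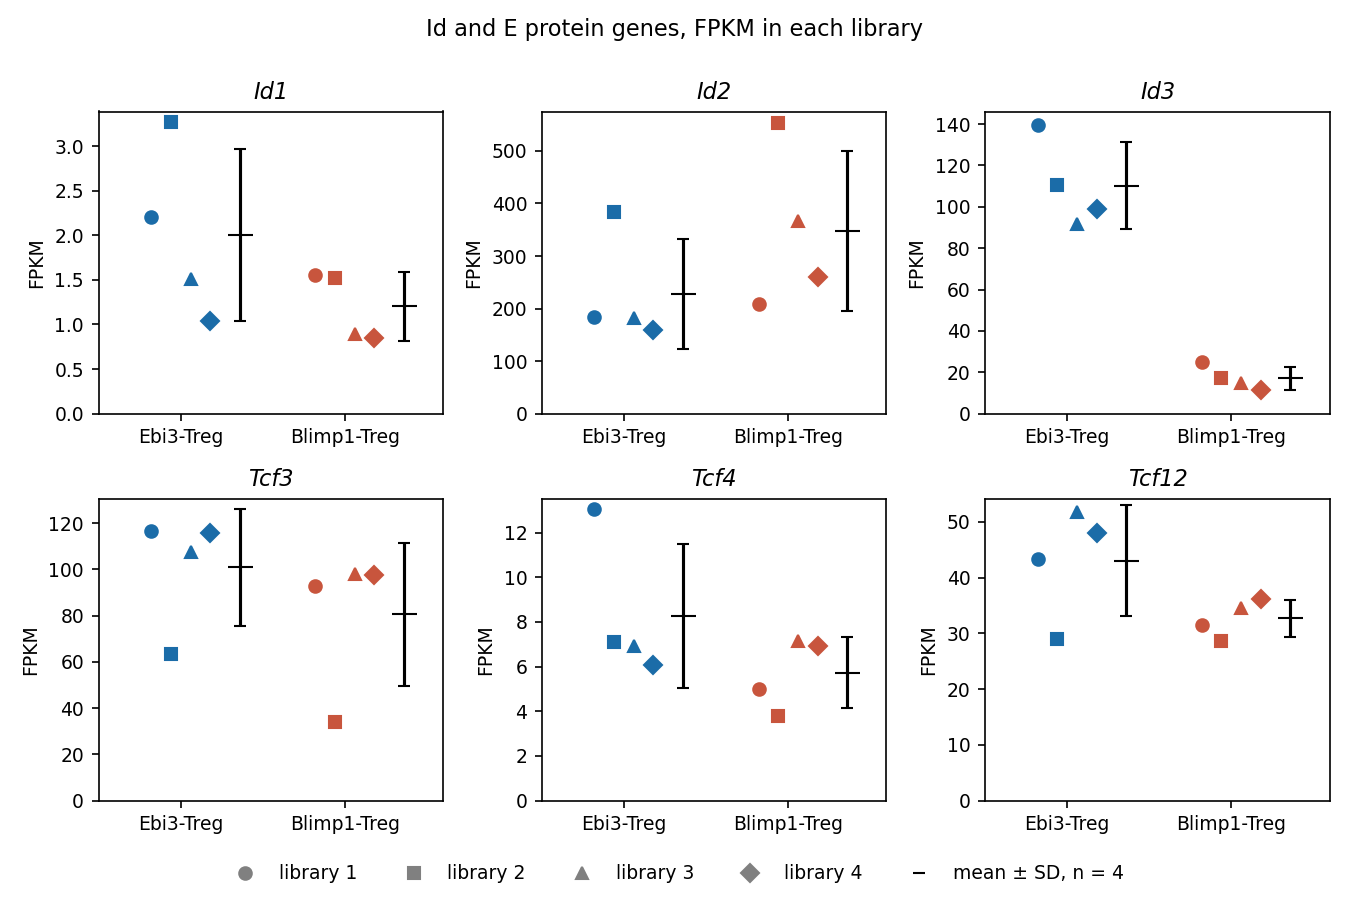
Deposited level (FPKM, linear axes from 0) of the 6 genes in each of the 8 libraries, with 1 marker shape per library number and the mean ± SD of the 4 libraries in black. Id3 is the gene whose populations do not overlap (91.7 FPKM or more against 24.8 FPKM or less), and libraries numbered 2 are the highest for Id2 and the lowest for Tcf3 in both populations.

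Tcf3, whose product E2A is the best studied E protein of lymphocytes, was at 117, 63.5, 108 and 116 FPKM in Ebi3-Treg libraries 1 to 4. In Blimp1-Treg libraries 1 to 4 it was at 92.8, 34.2, 98 and 97.5 FPKM. Apart from the libraries numbered 2, which were lowest in both populations, the Ebi3-Treg values lay between 108 and 117 FPKM and the Blimp1-Treg values between 92.8 and 98 FPKM. With all 8 libraries the log2 fold change of 0.39 (SE 0.32, 95% interval -0.35 to 1.14) was not called (adjusted p = 0.633). It was 0.07 without Blimp1-Treg 2, 0.42 without both libraries numbered 1 and 0.24 (adjusted p = 0.076) without both libraries numbered 2.

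Tcf12, which encodes HEB, the usual partner of E2A in T cells, was at 43.4, 29.0, 51.7 and 48.0 FPKM in Ebi3-Treg libraries 1 to 4 and at 31.5, 28.6, 34.5 and 36.2 FPKM in Blimp1-Treg libraries 1 to 4. The Ebi3-Treg libraries 1, 3 and 4 were above all Blimp1-Treg libraries, whereas the 2 libraries numbered 2 were nearly level, with a ratio of 1.01. The log2 fold change was 0.36 (SE 0.16, 95% interval -0.0067 to 0.73, adjusted p = 0.281). Without both libraries numbered 2 it was 0.47 (SE 0.08, adjusted p = 0.0115) and was called, in a fit that called 16.0% of tested genes, with 9.04% higher in Ebi3-Treg. With the replicate block and all 8 libraries the adjusted p was 0.0536.

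Tcf4, whose product E2-2 is the defining factor of plasmacytoid dendritic cells and is also present in B cells, was the lowest of the 3 E protein genes. It was at 13.1, 7.09, 6.90 and 6.07 FPKM in Ebi3-Treg libraries 1 to 4 and at 5.02, 3.81, 7.15 and 6.90 FPKM in Blimp1-Treg libraries 1 to 4. The highest value was in Ebi3-Treg 1, and the other 7 libraries lay between 3.81 and 7.15 FPKM. The log2 fold change was 0.44 (SE 0.28, 95% interval -0.21 to 1.1, adjusted p = 0.504). The direction differed by table: 0.99 in libraries 1 and 2 and -0.10 in libraries 3 and 4. That difference of -1.09 (SE 0.45) had an unadjusted p of 0.0466 and an adjusted p of 1.0 over all genes in limma's interaction test. That test called 0 genes, with 203 at an unadjusted p under 0.05, and the replicate block gave an adjusted p of 0.176 for Tcf4. For the other 5 genes the adjusted p of this test was likewise 1.0, with unadjusted p of 0.485 to 0.566. Xist, transcribed from the inactive X chromosome of females, was at 0.075 FPKM or less in libraries 1 and 2 and at 18.5 FPKM or more in libraries 3 and 4. The sex of the mice and the table therefore cannot be told apart.

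Markers of B cells and plasmacytoid dendritic cells, which use Tcf4, were measured beside it. The enrichment of CD4 T cells and the sort on CD25 select against both cell types. The 8 B cell markers were each at 1 FPKM or more in Ebi3-Treg 1 and Blimp1-Treg 1, whereas 4 or 5 of them were under 1 FPKM in each of the other 6 libraries, where none was at 0. Siglech, a gene of plasmacytoid dendritic cells, was at 3.23 and 2.11 FPKM in Ebi3-Treg 1 and Blimp1-Treg 1 and at 0.097 to 1.68 FPKM elsewhere. In the same 2 libraries Spib (18.8 and 10.8 FPKM), Irf8 (90.7 and 72.7 FPKM) and Klk1 (0.761 and 0.195 FPKM) were also higher in Ebi3-Treg 1. The rest of that list went the other way: Bst2 (107 and 114 FPKM), Runx2 (11.4 and 17.0 FPKM) and Ccr9 (6.06 and 36.0 FPKM). The summed level of the 7 listed plasmacytoid markers, some of which T cells express too, ran from 112 to 238 FPKM in Ebi3-Treg and from 94.5 to 253 FPKM in Blimp1-Treg. The summed B cell markers were larger for Ebi3-Treg 1 (246 FPKM) than for Blimp1-Treg 1 (171 FPKM). Tcf4 reached 13.1 FPKM in the former library and 5.02 FPKM in the latter. Without both libraries numbered 1 its log2 fold change was 0.18 (adjusted p = 0.605). The part of these cells in the Tcf4 values was not tested.

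**Figure D2:**
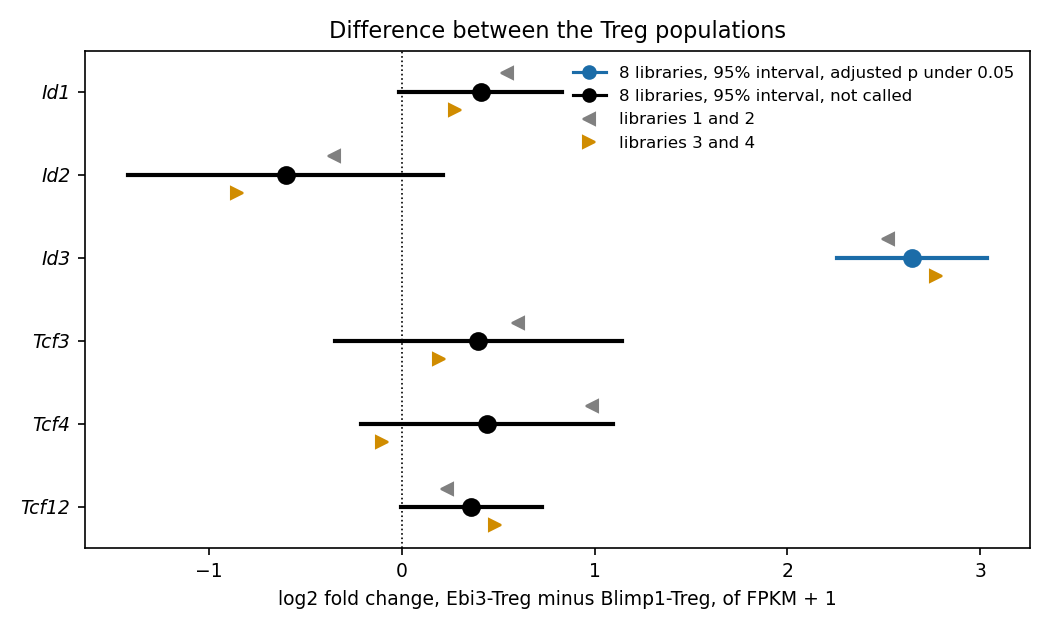
Log2 fold change of FPKM + 1, Ebi3-Treg minus Blimp1-Treg, for the 6 genes, with the 95% interval from limma over 8 libraries (circles) and the difference within each table (triangles). Only the interval of Id3 (2.26 to 3.03) excludes 0, and the within-table values of Tcf4 fall on both sides of 0 (0.99 and -0.10).

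The order of levels within a library was the same in every Blimp1-Treg library: Id2, Tcf3, Tcf12, Id3, Tcf4, Id1. In all Ebi3-Treg libraries Id3 stood above Tcf12, with 91.7 to 140 FPKM against 29.0 to 51.7 FPKM. It stood above Tcf3 in Ebi3-Treg 1 and 2 and below it in Ebi3-Treg 3 and 4, so these neighbours in the order did not differ beyond their spread. In Blimp1-Treg, Tcf12 (28.6 to 36.2 FPKM) and Id3 (11.7 to 24.8 FPKM) did not overlap. A comparison between genes depends on the gene length behind an FPKM value. Whole reads in all 8 libraries came out with a length of 764 bases for Id3, 2470 for Tcf12 and 1804 for Tcf4, where the union of reference exons was 1791, 15529 and 27382 bases. Per reference exon length, Id3 was above Tcf12 in 3 of the 4 Blimp1-Treg libraries, and Id1 was above Tcf4 in each library. Differences of 1 gene between populations do not depend on that length, apart from the pseudocount.

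The make-up of the Id pool is a ratio within a library, free of scaling between libraries. The Id2 to Id3 ratio of FPKM values was 1.31, 3.47, 1.98 and 1.62 in Ebi3-Treg libraries 1 to 4 and 8.4, 31.8, 24.9 and 22.3 in Blimp1-Treg libraries 1 to 4. The 2 ranges were apart, with the lowest Blimp1-Treg ratio above the highest Ebi3-Treg ratio. Id3 made up 22.2% to 42.9% of the summed FPKM of the 3 Id genes in Ebi3-Treg and 3.04% to 10.6% in Blimp1-Treg. The sum itself overlapped between populations, averaging 340 ± 109 FPKM over Ebi3-Treg libraries and 366 ± 151 FPKM over Blimp1-Treg libraries (SD, n = 4). With reference exon lengths the Id2 to Id3 ratio was 1.61 to 4.24 and 10.3 to 38.9. These composites are descriptions with no test, since they combine chosen genes.

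For the 3 E protein genes together, summed FPKM averaged 152 ± 35.2 over Ebi3-Treg libraries and 119 ± 35.3 over Blimp1-Treg libraries (SD, n = 4). Tcf3 supplied 63.8% to 68.2% of it in Ebi3-Treg and 51.3% to 71.8% in Blimp1-Treg, the lowest share being in Blimp1-Treg 2. The summed Id level over the summed E protein level was 1.88, 5.0, 1.65 and 1.53 in Ebi3-Treg libraries 1 to 4 and 1.82, 8.60, 2.74 and 1.94 in Blimp1-Treg libraries 1 to 4. Both libraries numbered 2 were high, and the remaining libraries of the 2 populations overlapped. Transcript sums of this kind do not give protein amounts.

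**Figure D3:**
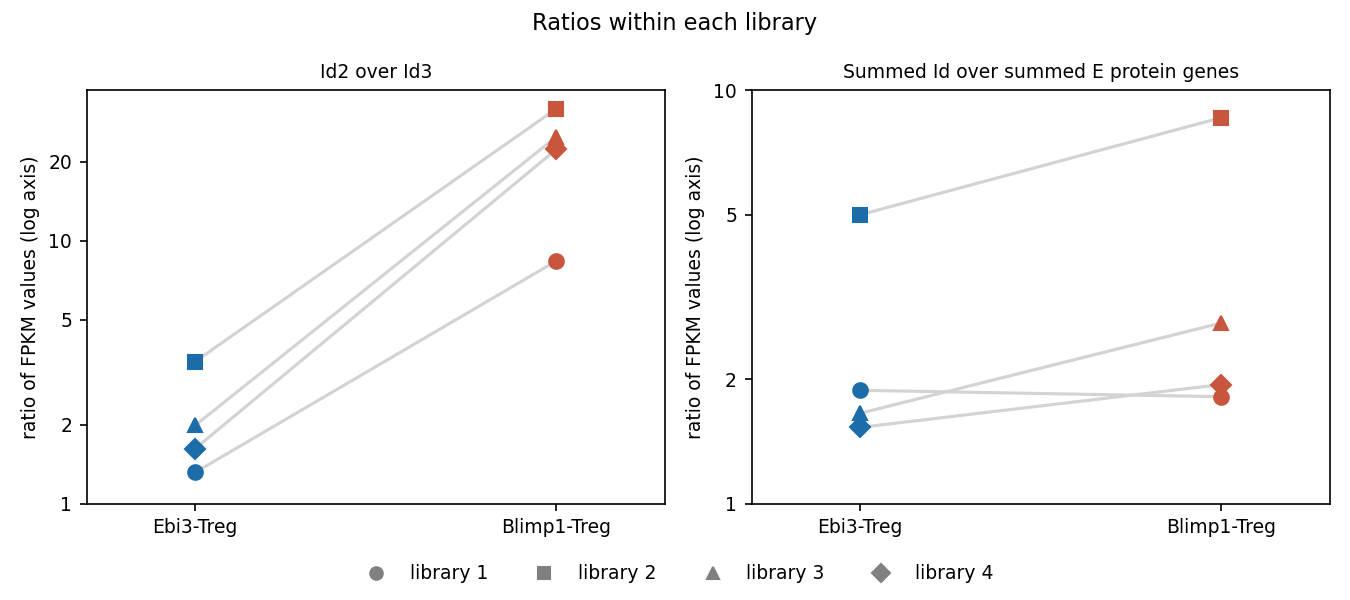
Ratios of FPKM values within each library on log axes, with lines joining libraries of the same number. The Id2 to Id3 ratio is 1.31 to 3.47 in Ebi3-Treg and 8.4 to 31.8 in Blimp1-Treg, while the ratio of summed Id to summed E protein genes overlaps (1.53 to 5.0 against 1.82 to 8.60).

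Around these 6 genes, most partners, cofactors, inducers and known targets did not pass the test. Of 23 listed partners of E proteins and other E-box binding factors, 15 were too low to be tested (at most 2.66 FPKM), including the partners Tal1, Lyl1 and Msc. Of the 8 tested, 0 were called with limma, against 6.29% of all tested genes. The median log2 fold change of the 8 was -0.31, against 0.07 for all tested genes. Hey1, a Notch-responsive repressor, averaged 29.8 ± 6.06 FPKM in Ebi3-Treg libraries and 54.8 ± 17.2 FPKM in Blimp1-Treg libraries (SD, n = 4). Its log2 fold change was -0.83 (adjusted p = 0.101). For Snai2, a zinc finger repressor of E-box genes, the difference was -1.03 log2 units (adjusted p = 0.0873), and -2.03 and -2.32 with pseudocounts of 0.1 and 0.01. Snai2 reached 1 FPKM in all Blimp1-Treg libraries but in only 1 Ebi3-Treg library, so it entered the test through the population where it was high and its place in these counts supports nothing. For Zeb1, another such repressor, it was 0.42 (adjusted p = 0.198), and for Bhlhe40 0.93 (adjusted p = 0.19). Hey1 and Zeb1 had no overlap between the populations, as had 11.1% of tested genes in one direction or the other. With the replicate block, 1 was higher (Zeb1) and 2 were lower (Hey1 and Snai2), where 22.4% of all tested genes were called, 13.5% higher and 8.94% lower.

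Of 9 tested cofactors, 1 was higher and 0 lower, with a median of 0.11. That is 11.1% called, against 6.29% of all tested genes. Lmo4, which encodes a LIM-only adaptor of transcription complexes, was higher in Ebi3-Treg, at 22.4, 18.6, 7.04 and 11.5 FPKM in libraries 1 to 4 against 3.77, 2.43, 4.98 and 4.75 FPKM. The populations did not overlap, as for 6.63% of tested genes in this direction. The log2 fold change was 1.59 (SE 0.35, adjusted p = 0.0369). Its call was lost on leaving out any 1 library other than Ebi3-Treg 3 (adjusted p up to 0.106), without both libraries numbered 1 (0.0566) and without the filter on low genes (0.0926). The difference was 2.40 log2 units in libraries 1 and 2, where the Ebi3-Treg libraries also had the high Lyz2 values, and 0.78 in libraries 3 and 4. Ldb1, which encodes the scaffold that LIM-only proteins bind, was at 135 ± 18.2 against 93.6 ± 26.2 FPKM (SD, n = 4, adjusted p = 0.197, with 0.0183 under the replicate block). Usp1, which encodes an enzyme known to stabilise Id proteins, differed by -0.16 log2 units (adjusted p = 0.63), and the acetyltransferase gene Kat2a by 0.35 (adjusted p = 0.804).

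Of 13 tested genes of routes known to induce Id transcription, namely receptors and SMADs of the BMP and TGF-beta pathways and EGR factors, 1 was higher and 0 lower (7.69% called, against 6.29% of all tested genes), with a median of 0.05. Smad1, which encodes a signal transducer of BMP receptors, was at 20.9, 15.9, 25.5 and 27.6 FPKM in Ebi3-Treg libraries 1 to 4 and at 10.3, 8.57, 15.8 and 14.4 FPKM in Blimp1-Treg libraries 1 to 4. Its populations lay just apart (0.83 log2 units, SE 0.15, adjusted p = 0.0163), as for 6.63% of tested genes without overlap in this direction. The call was lost without library 3 or 4 of either population (adjusted p up to 0.0785) without the table term (0.138) and without the filter (0.0514). The TGF-beta pathway genes Smad3 (-0.70, adjusted p = 0.414), Tgfbr1 (-0.42, 0.576) and Tgfbr2 (0.35, 0.678) did not pass. With the replicate block 3 were higher (Smad1, Smad7 and Tgfbr2) and 1 lower (Smad3), against 13.5% higher and 8.94% lower among all tested genes.

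Of 13 tested genes named as E protein targets in lymphocyte work, 1 was higher and 1 lower (15.4% called, against 6.29% of all tested genes), with a median of -0.19. Socs1, an inhibitor of cytokine signalling, was at 197, 241, 197 and 152 FPKM in Ebi3-Treg libraries 1 to 4 and at 96.6, 53.2, 79.5 and 69.0 FPKM in Blimp1-Treg libraries 1 to 4. The ranges were well apart (1.4 log2 units, SE 0.22, adjusted p = 0.00893), where 6.63% of tested genes had no overlap in this direction. The cell cycle kinase gene Cdk6 (-1.13, adjusted p = 0.0696) and the lineage factor gene Gata3 (0.52, adjusted p = 0.147) did not pass. With the replicate block 3 were higher (Socs1, Gata3 and Cxcr5) and 3 lower, Cdk6 and Cdkn1a among them, in the fit that called 13.5% of all tested genes higher and 8.94% lower. Rag1, Rag2 and Ptcra, targets of E proteins in thymocytes, were at 0.243 FPKM or less throughout.

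**Figure D4:**
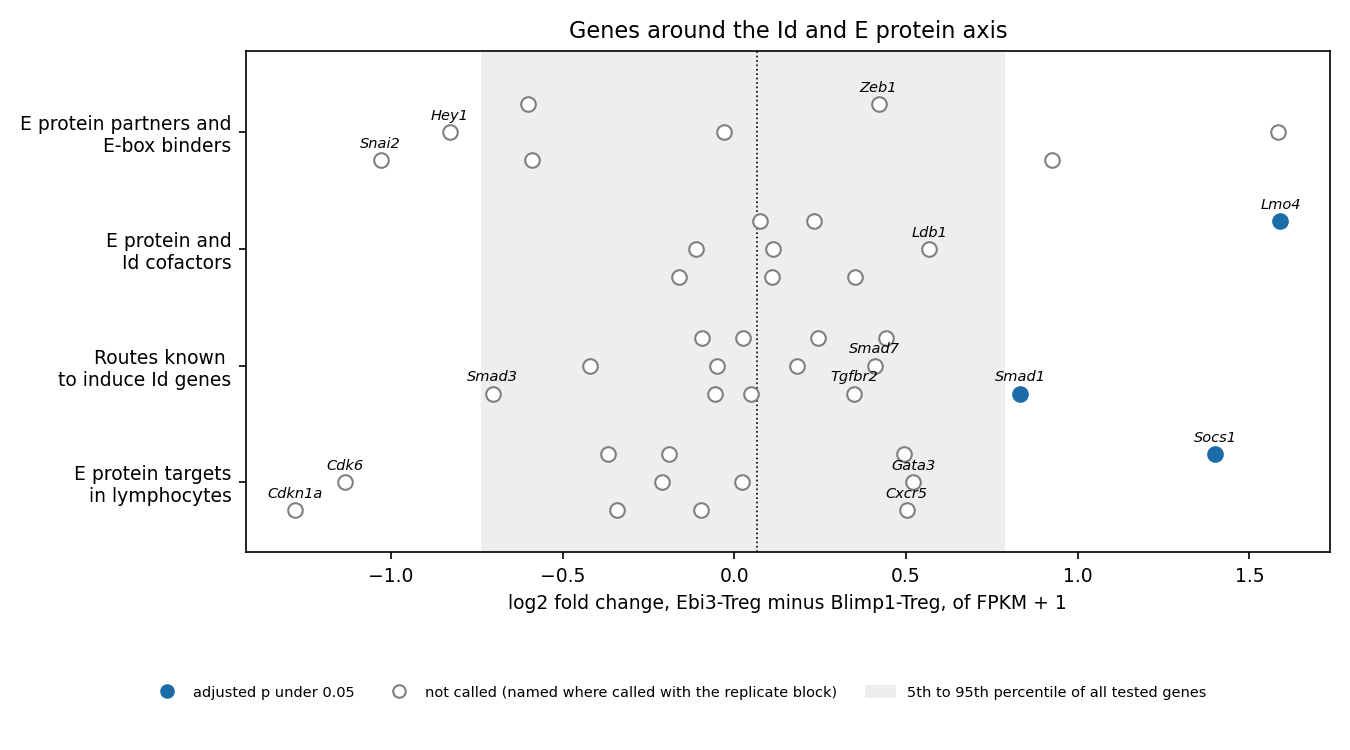
Log2 fold change of FPKM + 1, Ebi3-Treg minus Blimp1-Treg, of the tested genes in 4 lists around the Id and E proteins, with filled points for adjusted p under 0.05, the 5th to 95th percentile of all tested genes in grey and their median (0.07) dotted. Lmo4, Smad1 and Socs1 are filled on the right, 1 gene of the target list is not drawn, and the genes named beside open points were called with the replicate block.

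For each of the 6 genes, the 3 tested genes with the closest pattern were taken by Pearson r of log2(FPKM + 1) over the 8 libraries, after the mean of each table was subtracted. The choice was among genes with a symbol, without predicted models, pseudogenes, microRNAs and antigen receptor segments. All points share the same 8 libraries, and no test was made. For Id3 these were Tmem38a (r = 0.998), Car11 (0.995) and Nsg2 (0.993), with log2 fold changes of 0.74, 1.76 and 3.86, all higher in Ebi3-Treg. That direction was fixed by the choice, since the Id3 pattern left after the subtraction is mainly the population difference. For Id2 they were Plp2 (0.983), Tmem237 (0.975) and Ica1 (0.974), and for Id1 Dcxr (0.985), Tmem86a (0.984) and Zcchc12 (0.982). For Tcf3 they included Lemd2 (0.998) and Dyrk1b (0.997), for Tcf12 Fstl1 (0.990), Ube2cbp (0.986) and Dlg5 (0.985), and for Tcf4 Slc25a12 (0.977), Zfp111 (0.975) and Nf1 (0.968). None of the genes listed for Id1, Id2, Tcf3, Tcf4 or Tcf12 was called between the populations. Without subtracting table means, Dyrk1b stayed among the 3 for Tcf3, Nf1 for Tcf4 and Fstl1 and Dlg5 for Tcf12, and none stayed for the Id genes.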

How the data were processed

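The 2 deposited tables hold the authors' FPKM values, with 1 column per library named as in its title. Per the labels' protocols, amplified cDNA came from SMART-Seq v4 chemistry with 10 pg to 10 ng of RNA as input. The submitters' processing notes name Bowtie2 2.2.3, TopHat2 2.0.12, HTSeq 0.6.1 and mm9. The annotation, the counting mode and the tool that made the FPKM values were not given in the sources used here. Rows lacking an Ensembl identifier (640 and 612) were dropped, and a table of gene names gave symbols for 46488 of 47069 genes. Reference exon lengths and overlaps came from GENCODE (GRCm38).

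The test took the 12273 genes, all 6 members among them, that reached 1 FPKM in 4 or more libraries. The model for log2(FPKM + 1) had terms for population and table and a variance trend (limma 3.58.1, R 4.3.3), with two-sided Benjamini-Hochberg adjusted p over all tested genes. The script was tested on simulated data. Reads were recovered from the value of 1 fragment, with the shortest gene length that made all 8 libraries whole within 0.01. They cover counting error only, since amplified fragments carry no molecular identifiers and may repeat 1 molecule. No exon of the 6 genes overlapped another gene in the reference. Same-numbered libraries shared deviations from the population means (r = 0.62, 0.89, 0.53 and 0.54 for numbers 1 to 4), but Ebi3-Treg 3 and 4 correlated as well with the other Blimp1-Treg library of their table (0.56 and 0.61). The labels do not state a pairing, and for numbers 3 and 4 the correlations do not single out the library of the same number. Pairing by number is therefore an assumption there, and the replicate block is printed where it changed a call.

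Members, lists and alternatives were chosen with earlier results of these data known. Pathway genes named are the 4 of each list with the smallest unadjusted p. Others are named where they were called with the block, explain a count or were picked after their values were seen. Alternatives covered the pseudocount, filter, scaling, table term, block, variance trend and libraries left out, and levels per reference exon length were added after the data were seen. Tcf4 sequence was not analysed here. Some genes of the lists and of the closest patterns are counted but not reported here by name.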

Additional observations from a re-analysis of the deposited data

Results flagged for a closer look

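In groups of 4 libraries, 9 values lay far from the other 3 of their group, among 22 groups examined, where chance flags about 1 group in 20 and several of the quantities share genes. Both libraries numbered 2 account for 7 of them. Id2 was at 384 FPKM in Ebi3-Treg 2, against 160 to 184 FPKM in the other Ebi3-Treg libraries. Tcf3 was at 63.5 FPKM in Ebi3-Treg 2 (others 108 to 117 FPKM) and at 34.2 FPKM in Blimp1-Treg 2 (others 92.8 to 98 FPKM). The summed E protein level was 99.6 FPKM in Ebi3-Treg 2 (others 166 to 173 FPKM) and 66.6 FPKM in Blimp1-Treg 2 (others 129 to 141 FPKM). The ratio of summed Id to summed E protein genes was 5.0 in Ebi3-Treg 2 (others 1.53 to 1.88) and 8.60 in Blimp1-Treg 2 (others 1.82 to 2.74). Listed genes picked after their values were seen went both ways in the libraries numbered 2 of Ebi3-Treg and Blimp1-Treg. Notch1 was low at 28.4 and 25.8 FPKM (others 176 to 269 FPKM), and Ep300 at 20.7 and 23.8 FPKM (others 62.6 to 93.6 FPKM). Cdkn1a was high at 72.2 and 184 FPKM (others 14.3 to 61.4 FPKM), and Foxo1 was not low at 55.1 and 59.2 FPKM (others 49.0 to 56.3 FPKM).

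The remaining values were in libraries numbered 1, which had the high B cell marker sums. The part of B cell transcripts in these values was not tested. Tcf4 was at 13.1 FPKM in Ebi3-Treg 1, against 6.07 to 7.09 FPKM in the other Ebi3-Treg libraries, and at 5.02 FPKM in Blimp1-Treg 1. Id3 made up 10.6% of the summed Id level in Blimp1-Treg 1, against 3.04% to 4.27% in the other Blimp1-Treg libraries.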

How the results depend on the processing

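Of the 19 alternatives, each kept the direction of all 6 genes where they were tested, and each kept the call of Id3 (2.56 to 2.77, adjusted p 5.22e-05 to 0.00364). Leaving out single libraries gave ranges of 0.30 to 0.49 for Id1, -0.93 to -0.37 for Id2, 0.07 to 0.64 for Tcf3, 0.17 to 0.58 for Tcf4 and 0.27 to 0.50 for Tcf12, none called, and 341 to 771 genes called in all. Id1 had no value with the 5 FPKM filter. The number of genes called, 772 as reported, was 420 without a filter (40415 genes tested), 441 without the table term, 2752 with the replicate block, 1970 without both libraries numbered 1 and 1962 without both numbered 2. The number of the 6 genes called rose from 1 to 2 in the last 3 of these: Id2 (-0.60, adjusted p = 0.0192) with the replicate block, Id2 (-0.74) without both numbered 1, and Tcf12 (0.47) without both numbered 2. The cause was not tested. The block, the pairing being from the data, changed no other call of the 6. Kat2a turned to -0.068 without Blimp1-Treg 2 (range over single libraries left out -0.068 to 0.66). The difference of the contrast between tables called 13 genes with the replicate block, none of the 6. Leaving out single libraries moved that difference across 0, from -1.20 to 0.20 for Id2, -0.00068 to 0.49 for Id3, -1.12 to 0.30 for Tcf3 and -0.033 to 0.53 for Tcf12, and never for Id1 or Tcf4. Id1 values stand on 13 to 69 reads a library.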

Other observations

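Values of 2 further helix-loop-helix genes, chosen after they were seen, differed between libraries. A difference of the contrast between tables was called for neither, since limma's interaction test without the replicate block called 0 genes. Hes1, a repressor induced by Notch, was at 3.17, 1.04, 7.97 and 29.3 FPKM in Ebi3-Treg libraries 1 to 4 and at 2.55, 2.44, 0.146 and 1.05 FPKM in Blimp1-Treg libraries 1 to 4, with Ebi3-Treg 4 the highest and a difference that was not called (log2 fold change 1.58, adjusted p = 0.341). Bhlhe40, a repressor involved in T cell cytokine production, was at 632 and 852 FPKM in Ebi3-Treg 1 and 2 against 176 and 277 FPKM in Blimp1-Treg 1 and 2, while libraries 3 and 4 overlapped (779 and 718 against 804 and 586 FPKM).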
